A study of Bos taurus with 9 samples.

Results

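Heat shock proteins, chaperonins and prefoldins are the proteins that help other proteins reach and keep their folded shape. Their transcripts were followed in bovine cloned embryos, in morulae that had received KDM6A mRNA, in morulae that had not, and in 8-cell embryos. The genes were taken by symbol: the HSPA, HSPB, HSPD1, HSPE1, HSPH1 and HSP90 genes, the J protein genes of types A, B and C (DNAJA, DNAJB, DNAJC), the TRiC chaperonin genes (TCP1 and the CCT genes) and the prefoldin genes (PFDN genes and VBP1). This rule found 84 of the 17258 genes listed in any file. They comprised 12 HSP70 or HSP110 genes, 3 HSP90 genes, 7 small heat shock genes, the 2 mitochondrial chaperonin genes, 10 TRiC genes, 6 prefoldin genes, and 4, 12 and 28 J protein genes of types A, B and C. DNAJC5B was listed in the 8-cell files alone, so 83 genes could be read in the morula files. HSPA5 was not analysed here.

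All embryos were clones, made by fusing a donor cell with an oocyte whose own chromosomes had been taken out (somatic cell nuclear transfer). Per the labels the donor cells were fibroblasts of 1 female Holstein fetus, so by them the nuclei derive from a single animal. The oocytes came from abattoir ovaries. KDM6A morulae (3 libraries) grew from embryos injected after activation with mRNA for bovine wild-type KDM6A, a histone demethylase that acts on methylated lysine of histone H3 at silenced genes. Control morulae (3 libraries) were cloned embryos with no injection, so an injection without KDM6A mRNA is not part of the comparison, and each morula library holds 5 embryos taken on day 5. The 8-cell embryos (3 libraries) were cloned embryos without injection and were drawn by the submitters from an earlier series, so a difference by stage and a difference by series cannot be told apart. Labels of these 8-cell libraries repeat the morula protocol, so their donor and oocyte source are less certain. Pool size and collection day are not given here for them. Whether pools of 1 group had separate oocyte batches is not stated, so p-values cover the spread between these libraries only, and some of that spread may be technical. Because each library is a pool of whole embryos, fewer cells of a type and less RNA per cell cannot be told apart.

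As background, HSP70 proteins bind exposed greasy stretches of unfolded proteins in cycles driven by ATP. J proteins deliver clients to them and start the cycle, and HSP110 proteins release the spent nucleotide. HSP90 completes the folding of kinases and receptors, while TRiC, a double ring of different subunits, folds actin and tubulin that prefoldin hands over. Mitochondria keep a chaperonin of their own, HSP60 with its lid HSP10, and a resident HSP70. Heat and proteotoxic stress raise some of these genes through heat shock factors, and HSPA1A is known as one of the early transcripts of the embryonic genome in mice.

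The KDM6A transcript, read first as a check of the labels, stood at 35.65, 87.58 and 79.44 FPKM in KDM6A morulae, against 10.72, 13.86 and 10.74 FPKM in control morulae and 6.13, 9.41 and 10.73 FPKM in 8-cell embryos. All 3 injected pools lay above all other libraries, and replicate 1 lay well below the rest of its group. Values are FPKM, which count fragments relative to transcript length and library size, so levels can be set side by side between genes per unit of length, and sequencing depth is unknown. Genes at 1 FPKM or more numbered 8923 to 9757 in a library. Pairwise correlations of log2(FPKM + 1) lay between 0.979 and 0.990 for pairs of a KDM6A and a control morula library and between 0.822 and 0.893 for pairs of a control morula and an 8-cell library. All 6 pluripotency and early embryo markers looked for reached 1 FPKM in a morula library. Summed, they came to 447.1 to 566.0 FPKM in KDM6A morulae, 424.5 to 487.9 FPKM in control morulae and 741.5 to 800.5 FPKM in 8-cell embryos. Summed oocyte markers came to 23.5 to 31.3 FPKM in KDM6A morulae, 11.97 to 83.0 FPKM in control morulae and 368 to 413 FPKM in 8-cell embryos. Summed donor fibroblast markers came to 10.7 to 33.0 FPKM in KDM6A morulae, 12.1 to 30.7 FPKM in control morulae and 15.0 to 62.2 FPKM in 8-cell embryos. Cumulus and granulosa markers summed to 2.76 to 5.88 FPKM in KDM6A morulae, 4.13 to 5.93 FPKM in control morulae and 15.3 to 26.0 FPKM in 8-cell embryos. At least 1 morula library reached 1 FPKM for 6 of 7 oocyte, 4 of 9 fibroblast and 2 of 7 cumulus and granulosa markers.

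Chaperone transcripts were abundant at both stages. Together the chaperone genes held 1.27% to 1.29% of the summed FPKM of annotated genes in KDM6A morulae, 1.30% to 1.38% in control morulae and 0.771% to 0.868% in 8-cell embryos. At least 100 FPKM in every library of the group was reached by 23 of the genes in KDM6A morulae, 25 in control morulae and 17 in 8-cell embryos. HSPE1, the mitochondrial HSP10, led in morulae and ranked between 67 and 84 among all genes in KDM6A morulae, between 54 and 68 in control morulae and between 214 and 582 in 8-cell embryos. HSPA8, the constitutive cytosolic HSP70, had 1645.48, 1317.02 and 1364.2 FPKM in KDM6A morulae, 1463.79, 1665.7 and 1585.9 FPKM in control morulae and 1352.49, 810.88 and 870.79 FPKM in 8-cell embryos, where it led the set. Low or silent throughout were 13 genes that entered no comparison, with no value above 1.61 FPKM, among them the strictly stress-induced HSPA6, the TRiC-class gene CCT8L2 and the muscle-type HSPB2, HSPB6 and HSPB8.

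**Figure D1:**
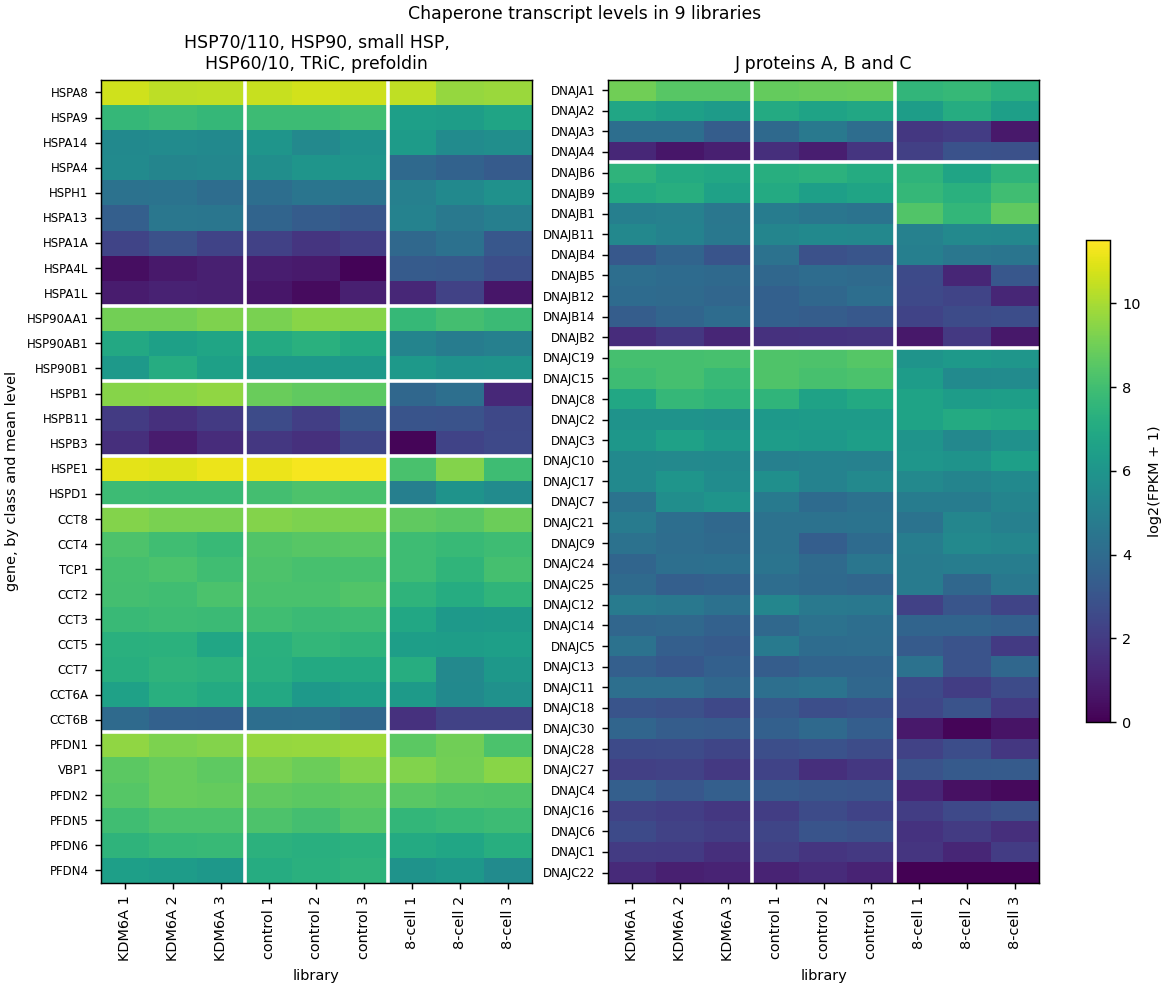
Transcript levels as log2(FPKM + 1) (colour) of the 71 chaperone genes that entered at least 1 comparison (rows, by class and mean level) in the 9 libraries (columns: KDM6A morulae, control morulae, 8-cell embryos). HSPE1 and HSPA8 are the brightest rows, HSPB1 is bright in the 6 morula libraries and dark in 8-cell embryos, and DNAJB1 is brighter in the 3 8-cell libraries than in any morula library.

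No chaperone gene passed the test between KDM6A and control morulae. A gene was tested where at least 3 of the 6 libraries reached 1 FPKM, which 69 of the chaperone genes did, and was called where limma's Benjamini-Hochberg adjusted p over all 9777 genes tested lay below 0.05. Called were 0 of the 69 higher and 0 lower, beside 0.123% higher and 0.0409% lower of all genes tested. An unadjusted p below 0.05 was found for 13 of the 69, beside 12.7% of all genes tested. The leading candidates were HSPB1, higher in KDM6A morulae, and the prefoldin subunit gene PFDN4, lower there. Fold changes were below 0 for 49 of the 69, beside 51.4% of all genes tested, and their median was -0.17 on the log2(FPKM + 1) scale, beside -0.01 for all genes tested.

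HSPB1 encodes HSP27, a small heat shock protein that holds unfolded proteins without using ATP and binds actin filaments. It had 687.71, 696.2 and 779.67 FPKM in KDM6A morulae, against 460.82, 411.14 and 385.36 FPKM in control morulae. The groups were apart, with every injected pool above every control pool, and the ratio of means was 1.72 (log2 fold change 0.78, SE 0.13, adjusted p = 0.0552 with limma). Over the alternative settings its adjusted p ran from 0.0125 to 0.662, and it was called under quantile normalization (adjusted p = 0.0162) and without KDM6A morula replicate 1 (adjusted p = 0.0125). HSPA1A, the heat-inducible HSP70, had 4.16, 6.21 and 3.95 FPKM in KDM6A morulae, against 3.64, 2.44 and 3.39 FPKM in control morulae, with adjusted p = 0.430. Its groups did not overlap either, at a far lower level than that of HSPB1.

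PFDN4 had 88.1, 80.25 and 68.87 FPKM in KDM6A morulae, against 139.01, 155.41 and 178.52 FPKM in control morulae. No injected pool reached the lowest control pool, and the ratio of means was 0.502 (log2 fold change -0.99, SE 0.17, adjusted p = 0.0552 with limma). The adjusted p ran from 0.00926 to 0.342 over the alternatives, with calls under quantile normalization (0.0492) and without KDM6A morula replicate 1 (0.00926). VBP1, another prefoldin subunit gene, had 384.95, 451.71 and 395.84 FPKM in KDM6A morulae and 569.38, 486.82 and 660.03 FPKM in control morulae (log2 fold change -0.47, SE 0.15, adjusted p = 0.283). PFDN1 was likewise lower in every injected pool, with 598.17 to 761.47 FPKM in KDM6A morulae and 815.06 to 917.55 FPKM in control morulae (adjusted p = 0.317). PFDN6 had higher values instead, with 176.78 to 215.51 FPKM in KDM6A morulae and 152.99 to 167.77 FPKM in control morulae (adjusted p = 0.406), while PFDN2 and PFDN5 overlapped between the groups. The 6 prefoldin genes thus differed in sign, and the ratio of the highest to the lowest subunit was 8.64, 7.45 and 9.55 in KDM6A morulae against 5.86, 5.53 and 5.71 in control morulae.

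Among the larger machines, CCT4 of the TRiC ring had 309.39, 251.1 and 215.75 FPKM in KDM6A morulae, against 328.97, 365.51 and 377.65 FPKM in control morulae (log2 fold change -0.48, SE 0.16, adjusted p = 0.291). HSPA4, an HSP110-type partner of HSP70, had 45.03, 37.0 and 39.64 FPKM in KDM6A morulae and 50.27, 62.86 and 63.03 FPKM in control morulae (log2 fold change -0.52, adjusted p = 0.291). Both genes were lower in all injected pools without passing the threshold. HSPD1, the mitochondrial HSP60, had 236.74, 227.64 and 229.34 FPKM in KDM6A morulae and 265.29, 314.25 and 294.47 FPKM in control morulae (adjusted p = 0.349). HSP90AB1 had 90.48 to 123.41 FPKM in KDM6A morulae and 127.06 to 155.54 FPKM in control morulae (adjusted p = 0.399). HSPB11, listed with the small heat shock genes by name although its product is known as a ciliary transport subunit, had 2.97, 2.0 and 2.89 FPKM in KDM6A morulae and 5.14, 3.44 and 7.45 FPKM in control morulae (adjusted p = 0.298).

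Groups that did not overlap were found for 4 genes higher in KDM6A morulae, beside 7.1% of all genes tested, and for 14 genes lower, beside 8.61% of all genes tested. The 4 were HSPB1, HSPA1A, PFDN6 and DNAJC10, the last a reductase of the endoplasmic reticulum with 42.75, 41.01 and 43.03 FPKM in KDM6A morulae and 31.21, 32.75 and 32.27 FPKM in control morulae (adjusted p = 0.349). Those 14 included HSPD1, HSPA9, DNAJC15 and DNAJC19 of the mitochondria, PFDN1, PFDN4 and VBP1 of prefoldin, CCT4, HSPA4 and HSP90AB1. Within the J proteins of types A and B the groups overlapped for every gene tested. DNAJA2 had the smallest p of type A (78.0 to 109.3 FPKM in KDM6A morulae, 102.42 to 131.76 FPKM in control morulae, adjusted p = 0.444) and DNAJB14 of type B (9.35 to 15.62 FPKM in KDM6A morulae, 8.08 to 10.69 FPKM in control morulae, adjusted p = 0.538).

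Replicate 1 of the injected pools sat nearer the controls than the rest for several of these genes. DNAJC7, a J protein with binding repeats for HSP70 and HSP90, had 19.68, 50.92 and 60.5 FPKM in KDM6A morulae, against 24.92, 15.18 and 18.46 FPKM in control morulae. Replicates 2 and 3 lay above all controls and replicate 1 lay within them (log2 fold change 1.01, SE 0.36, adjusted p = 0.307). HSPA13, an HSP70 relative of the microsomes, had the same layout, with 10.07, 22.49 and 21.94 FPKM in KDM6A morulae and 12.06, 9.33 and 7.39 FPKM in control morulae (log2 fold change 0.80, adjusted p = 0.320). Replicate 1 was also the injected pool with the lowest KDM6A transcript, 35.65 FPKM. Of the 69 genes 36 had their value closest to the control mean in replicate 1, against 16 in replicate 2 and 17 in replicate 3. That count was made for the chaperone genes alone, so it is not read as particular to them. Without replicate 1, 380 genes in all (3.89% of those tested) were called higher and 365 (3.73%) lower. Chaperone genes among them were DNAJC7 (adjusted p = 0.00811), HSPB1 and HSPA13 (0.0168), which were higher, and PFDN4, CCT4 (0.0374) and DNAJC5 (0.0494), which were lower. Across the alternatives the adjusted p reached 0.812 for DNAJC7 and CCT4, 0.830 for HSPA13 and 0.858 for DNAJC5, so these calls rest on leaving that pool out. What sets replicate 1 apart was not tested.

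**Figure D2:**
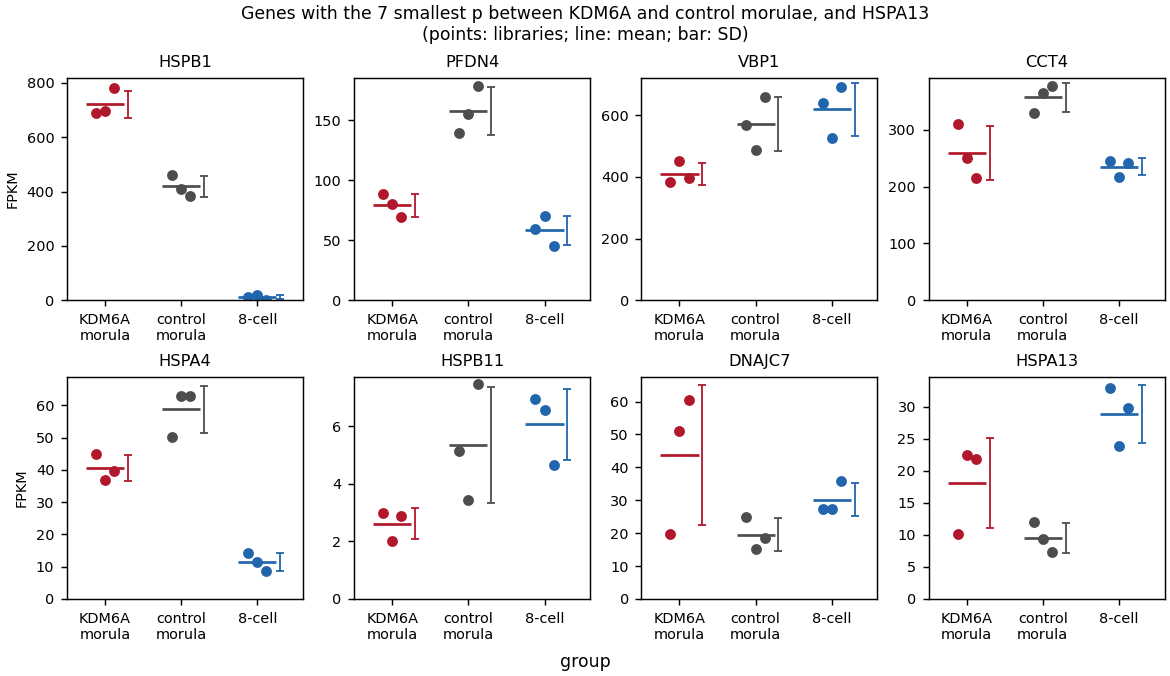
FPKM of 8 chaperone genes in KDM6A morulae, control morulae and 8-cell embryos. Points are libraries, lines are means and bars are SD (n = 3 per group). HSPB1 lies at 687.71 FPKM or more in KDM6A morulae and at 460.82 FPKM or less in control morulae, PFDN4, VBP1, CCT4, HSPA4 and HSPB11 are lower in KDM6A morulae with no overlap, and DNAJC7 and HSPA13 have 1 injected pool among the controls.

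Between control morulae and 8-cell embryos the chaperone set turned over in both directions. Of 70 chaperone genes tested, 33 were higher in control morulae, beside 42.7% of all 10048 genes tested, and 14 were lower, beside 27.1% of all genes tested. These shares are near the background, so the set as a whole did not stand out, and the classes within it differed in direction. The median log2 fold change was 0.54 for the 70 genes and 0.35 for all genes tested. Under quantile normalization, which brought the median of all genes to 0.07, 27 were higher and 17 lower, beside 36.1% and 33.2% of all genes tested. Under median-of-ratios scaling (median 0.11) 26 were higher and 16 lower, beside 36.7% and 32.5%. KDM6A morulae, set against the same 8-cell libraries, had 32 of 71 higher, beside 41.1% of all genes tested, and 14 lower, beside 25.6%. Their scaled counts were 27 higher and 18 lower under quantile normalization, beside 34.3% and 31.5% of all genes tested, and 24 and 18 under median-of-ratios scaling, beside 35.5% and 30.7%. These 2 stage comparisons share their 8-cell libraries. The embryo, oocyte and cumulus marker sums given above also differed by stage without overlap, while the fibroblast marker sums overlapped. The part of these cell types in the stage differences was not tested.

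**Figure D3:**
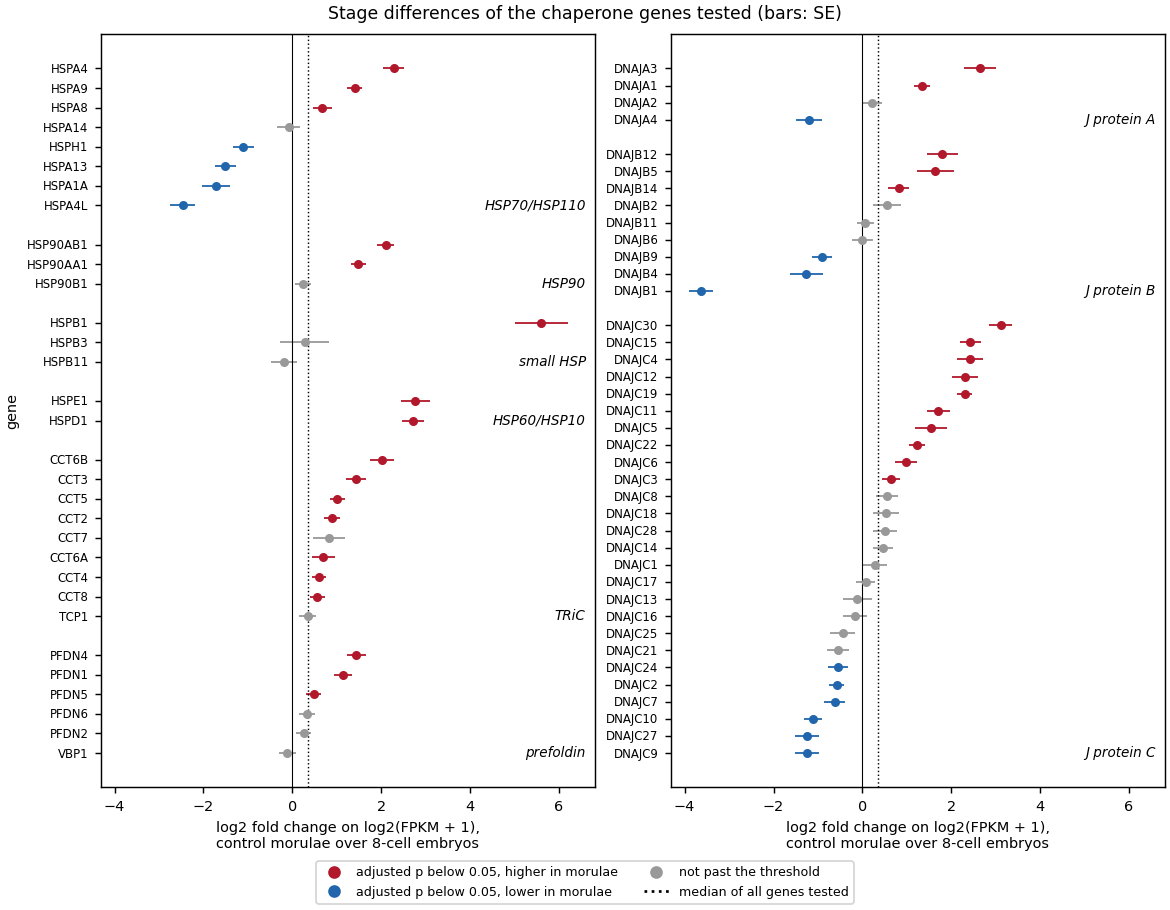
Log2 fold change on log2(FPKM + 1) of the 70 chaperone genes tested, control morulae over 8-cell embryos, by class, with SE bars. Red points were called higher, blue points called lower and grey points not called, and the dotted line is the median of all genes tested, 0.35. HSPB1 (5.60) and DNAJB1 (-3.63) stand at the ends, and both HSP60 and HSP10 genes lie near 2.7.

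HSPB1 had the widest stage difference of the set, with 13.18, 17.11 and 1.51 FPKM in 8-cell embryos. Its mean was 39.5-fold higher in control morulae (log2 fold change 5.60, SE 0.60, adjusted p = 3.13e-05) and 68.0-fold higher in KDM6A morulae (6.38, SE 0.58, adjusted p = 6.99e-06). The 8-cell libraries were themselves uneven, since replicate 3 held far less than the others, and all 6 morula libraries stood far above them. Leaving out single libraries moved the control value between 4.71 and 6.13. HSPB3, a muscle-type relative, had 0.85 to 1.93 FPKM in KDM6A morulae, 1.98 to 4.36 FPKM in control morulae and 0.11 to 4.73 FPKM in 8-cell embryos, with no call in any comparison. HSPB11 was lower in KDM6A morulae than in 8-cell embryos (6.96, 6.57 and 4.66 FPKM in 8-cell embryos, log2 fold change -0.96, adjusted p = 0.00847), and it was not called between control morulae and 8-cell embryos (-0.19, adjusted p = 0.582).

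The mitochondrial chaperonin genes HSPE1 and HSPD1 were higher in morulae. HSPE1 had 2070.18, 1968.28 and 2315.22 FPKM in KDM6A morulae and 2314.06, 2560.89 and 2557.56 FPKM in control morulae, against 292.97, 668.72 and 244.37 FPKM in 8-cell embryos. HSPD1 had 29.77, 59.48 and 45.46 FPKM in 8-cell embryos, under every morula value given above. Both were called in control morulae, with HSPE1 6.16-fold (log2 fold change 2.77, SE 0.32, adjusted p = 5.34e-05) and HSPD1 6.49-fold higher (2.72, SE 0.25, adjusted p = 1.25e-05). In KDM6A morulae the ratios to 8-cell embryos were 5.27 for HSPE1 and 5.15 for HSPD1. The 2 genes are neighbours on chromosome 2 in the RefSeq annotation and are known to share a promoter region in mammals. Per length, HSPE1 exceeded HSPD1 8.75, 8.65 and 10.1 times in KDM6A morulae, 8.72, 8.15 and 8.69 times in control morulae, and 9.84, 11.2 and 5.38 times in 8-cell embryos, so the ratio overlapped between the 3 groups while both levels differed by stage.

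HSPA9, the HSP70 of the mitochondrial matrix, had 200.13, 224.99 and 202.02 FPKM in KDM6A morulae, 235.48, 234.92 and 259.48 FPKM in control morulae and 87.95, 84.13 and 103.56 FPKM in 8-cell embryos. It was called higher in control morulae (log2 fold change 1.40, SE 0.17, adjusted p = 6.77e-05). Several J proteins of the mitochondria were higher as well. DNAJC15, of the import motor at the inner membrane, had 214.46 to 275.47 FPKM in KDM6A morulae and 280.23 to 321.92 FPKM in control morulae, against 44.82 to 80.1 FPKM in 8-cell embryos (log2 fold change 2.43 in control morulae, adjusted p = 1.9e-05). DNAJC19, of the same motor, had 271.55 to 284.61 FPKM in KDM6A morulae and 312.88 to 355.7 FPKM in control morulae, against 60.53 to 72.23 FPKM in 8-cell embryos (2.30, adjusted p = 4e-06). DNAJC30, which assists the repair of respiratory complex I, had 8.8 to 12.28 FPKM in KDM6A morulae and 9.79 to 14.35 FPKM in control morulae, against 0.13 to 0.71 FPKM in 8-cell embryos (log2 fold change 3.11 in control morulae, adjusted p = 8.22e-06). DNAJA3, a matrix J protein of type A, rose to 14.21 to 23.74 FPKM in control morulae, against 0.74 to 3.11 FPKM in 8-cell embryos, and DNAJC11, tied to the complex that shapes the cristae, to 13.46 to 19.8 FPKM in control morulae, against 3.29 to 5.14 FPKM in 8-cell embryos. Genes were grouped by location after their values had been seen. All 8 placed in mitochondria were called higher in control morulae, with log2 fold changes from 1.40 to 3.11 and a median of 2.54. The same 8 were called higher in KDM6A morulae, from 1.18 to 2.95 with a median of 2.24. Beside these counts stand 41.1% (KDM6A morulae) and 42.7% (control morulae) called higher among all genes tested. The group was put together after its values were seen and is not a full list, so its count is a description only. DNAJC28 was not placed in it and was not called against 8-cell embryos in control morulae. In KDM6A morulae DNAJC28 was not called either (log2 fold change 0.27, adjusted p = 0.423 with limma).

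The cytosolic HSP70 and HSP110 genes split. HSPA4 was higher in control morulae (14.17, 11.43 and 8.78 FPKM in 8-cell embryos, log2 fold change 2.28, SE 0.23, adjusted p = 2.09e-05), while its close relatives HSPA4L and HSPH1 were lower. HSPA4L had 0.34, 0.72 and 1.0 FPKM in KDM6A morulae and 0.87, 0.8 and 0.09 FPKM in control morulae, against 8.97, 8.33 and 5.69 FPKM in 8-cell embryos, a mean 13.1-fold higher in 8-cell embryos than in control morulae. HSPH1, the stress-inducible HSP110, had 19.08, 19.56 and 16.47 FPKM in KDM6A morulae, 16.55, 20.94 and 20.08 FPKM in control morulae and 31.56, 43.35 and 55.08 FPKM in 8-cell embryos (log2 fold change -1.11 in control morulae, adjusted p = 0.00225, and -1.16 in KDM6A morulae, adjusted p = 0.00184). The morula and 8-cell values of both genes did not overlap.

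HSPA1A was lower at the morula stage, with 13.81, 18.45 and 7.61 FPKM in 8-cell embryos (log2 fold change -1.72 in control morulae, SE 0.32, adjusted p = 0.000893, and -1.25 in KDM6A morulae, adjusted p = 0.0066). HSPA1L, its neighbour on chromosome 23, was at 0.81, 1.12 and 0.99 FPKM in KDM6A morulae, 0.64, 0.25 and 0.99 FPKM in control morulae and 1.42, 3.79 and 0.63 FPKM in 8-cell embryos, and the groups overlapped. HSPA1A has near-identical copies in cattle, and how the authors shared reads between copies is not given, so its level is uncertain. HSPA8 exceeded HSPA1A per length 212 to 396 times in KDM6A morulae, 402 to 683 times in control morulae and 44.0 to 114 times in 8-cell embryos. The gap between constitutive and inducible HSP70 was thus wider in every morula library than in any 8-cell library. HSPA8 itself was called in both stage comparisons (log2 fold change 0.67 in control morulae, adjusted p = 0.018, and 0.54 in KDM6A morulae, adjusted p = 0.0419), but its first 8-cell library overlapped the KDM6A morulae, and the adjusted p reached 0.260 and 0.452 under the alternatives. HSPA13 was lower in control morulae than in 8-cell embryos, where it had 32.91, 23.94 and 29.79 FPKM (log2 fold change -1.51, adjusted p = 0.000355), and HSPA14, a ribosome-associated member, was not called (-0.08, adjusted p = 0.779).

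The 2 cytosolic HSP90 genes were higher in morulae. HSP90AA1, the inducible form, had 535.48, 522.65 and 620.46 FPKM in KDM6A morulae and 580.49, 693.73 and 677.13 FPKM in control morulae, against 207.99, 262.55 and 224.93 FPKM in 8-cell embryos (log2 fold change 1.49 in control morulae, SE 0.17, adjusted p = 5.13e-05). HSP90AB1, the constitutive form, had 35.58, 27.69 and 30.87 FPKM in 8-cell embryos and rose 4.39-fold in control morulae (log2 fold change 2.10, adjusted p = 1.15e-05) and 3.41-fold in KDM6A morulae (1.73, adjusted p = 4.59e-05). The HSP90AA1 to HSP90AB1 ratio per length was 4.34 to 5.79 in KDM6A morulae and 4.44 to 5.33 in control morulae, below all 8-cell values of 5.85 to 9.48. HSP90B1, the form of the endoplasmic reticulum, had 72.51, 136.73 and 91.43 FPKM in KDM6A morulae, 74.65, 71.45 and 73.89 FPKM in control morulae and 70.6, 56.94 and 59.56 FPKM in 8-cell embryos. It was not called between control morulae and 8-cell embryos (log2 fold change 0.24, adjusted p = 0.255; -0.04 under median-of-ratios scaling). Its call in KDM6A morulae against 8-cell embryos (0.63, adjusted p = 0.0428) was lost under 8 of 13 alternatives, with adjusted p up to 0.218.

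The general J proteins changed places between the stages. DNAJB1, the heat-inducible HSP40, had 29.82, 32.37 and 22.83 FPKM in KDM6A morulae and 27.51, 22.12 and 19.79 FPKM in control morulae, against 328.58, 192.79 and 408.63 FPKM in 8-cell embryos. Its 8-cell mean was 13.4-fold that of control morulae (log2 fold change -3.63, SE 0.28, adjusted p = 4.85e-06) and 10.9-fold that of KDM6A morulae (-3.35, SE 0.28, adjusted p = 4.14e-06). DNAJA1, the main type A partner of HSPA8, went the opposite way, with 510.16, 369.78 and 365.81 FPKM in KDM6A morulae and 434.91, 468.86 and 482.06 FPKM in control morulae, against 190.06, 205.34 and 154.99 FPKM in 8-cell embryos (log2 fold change 1.34 in control morulae, SE 0.17, adjusted p = 0.000102). Per length, DNAJA1 stood at 17.1, 11.4 and 16.0 times DNAJB1 in KDM6A morulae and 15.8, 21.2 and 24.4 times in control morulae, but at 0.578, 1.07 and 0.379 times in 8-cell embryos. The order of these genes was therefore reversed in 2 of the 3 8-cell libraries, and the other had a ratio near 1. Relative to 8-cell embryos, control morulae also had less DNAJB4 (log2 fold change -1.26, adjusted p = 0.0109) and DNAJA4 (-1.21, adjusted p = 0.00477), both close relatives of those genes. DNAJB4 was uneven in control morulae (18.93, 6.28 and 7.17 FPKM). Its call was lost with no filter and without control morula replicate 2 or 3 (adjusted p up to 0.0581). DNAJA2 (0.21, adjusted p = 0.425) and DNAJB6, known for keeping polyglutamine proteins from aggregating (0.00, adjusted p = 0.995), were not called.

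**Figure D4:**
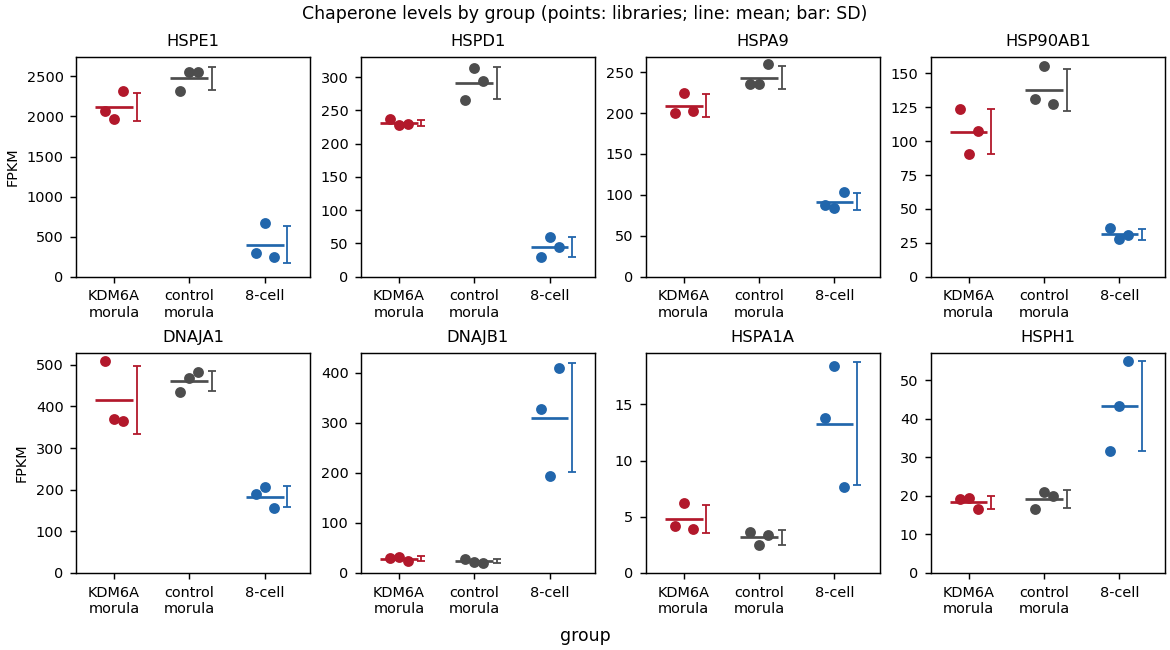
FPKM of 8 chaperone genes in KDM6A morulae, control morulae and 8-cell embryos. Points are libraries, lines are means and bars are SD (n = 3 per group). HSPE1, HSPD1, HSPA9, HSP90AB1 and DNAJA1 are higher in all 6 morula libraries than in any 8-cell library, and DNAJB1, HSPA1A and HSPH1 are lower in all 6.

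J proteins of the endoplasmic reticulum were called in both directions. DNAJB9, a stress-induced partner of the reticulum's HSP70, had 93.99 to 146.17 FPKM in KDM6A morulae and 88.52 to 131.71 FPKM in control morulae, against 157.51 to 253.43 FPKM in 8-cell embryos (log2 fold change -0.90 in control morulae, adjusted p = 0.00537). DNAJC10 was also lower, with 59.22 to 90.03 FPKM in 8-cell embryos (-1.11, adjusted p = 0.000914). DNAJB12 and DNAJB14, which sit in the membrane and act in protein degradation, were higher in control morulae (1.80, adjusted p = 0.00122, and 0.82, adjusted p = 0.0112), as was DNAJC3 (0.65, adjusted p = 0.0175). The call of DNAJB14 was lost under quantile normalization and median-of-ratios scaling (adjusted p up to 0.0801). That of DNAJC3 was lost under median-of-ratios scaling and without control morula replicate 3 (adjusted p up to 0.110). DNAJB11, a soluble partner in the lumen, was not called (0.07, adjusted p = 0.772). Counted by known location after values had been seen, 3 of 10 genes of the reticulum were higher and 3 lower in control morulae, with a median of 0.15. All genes tested had 42.7% higher and 27.1% lower, and nothing is read from these small counts.

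Among the type C J proteins, 10 of 26 tested were higher in control morulae, beside 42.7% of all genes tested, and 6 were lower, beside 27.1%, so the class as a whole was near the background. Besides the mitochondrial ones, DNAJC4 rose to 8.67, 7.53 and 6.86 FPKM in control morulae and 10.3, 7.7 and 10.05 FPKM in KDM6A morulae, against 1.38, 0.45 and 0.22 FPKM in 8-cell embryos. DNAJC12, a cofactor of the aromatic amino acid hydroxylases, had 23.61 to 37.98 FPKM in control morulae and 3.68 to 7.13 FPKM in 8-cell embryos (log2 fold change 2.30, adjusted p = 8.32e-05). DNAJC5, the cysteine string protein of secretory vesicles, was higher by 1.54 (adjusted p = 0.00316), and DNAJC22 was listed at 0 in the 3 8-cell libraries and at 1.18 to 1.67 FPKM in control morulae. The lower ones included DNAJC9, a chaperone of histones H3 and H4, with 14.77 to 19.25 FPKM in KDM6A morulae, 9.94 to 19.08 FPKM in control morulae and 28.07 to 41.72 FPKM in 8-cell embryos (log2 fold change -1.26 in control morulae, adjusted p = 0.00209). DNAJC27, which carries a small GTPase domain, fell by 1.25 (adjusted p = 0.00225). DNAJC2, the J protein that forms the ribosome-associated complex with HSPA14, had 54.79 to 59.25 FPKM in KDM6A morulae and 72.6 to 79.67 FPKM in control morulae, against 101.28 to 128.72 FPKM in 8-cell embryos (-0.58 in control morulae, adjusted p = 0.0138, and -0.99 in KDM6A morulae, adjusted p = 0.000934). Its 3 groups did not overlap. DNAJC24 (adjusted p = 0.0449) and DNAJC7 (adjusted p = 0.0389) were also lower in control morulae, and these calls were lost under 7 and 5 of 13 alternatives.

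Most TRiC genes tested were called higher in morulae, and none was called lower. CCT8, the most abundant subunit transcript in all 3 groups, had 662.11, 589.46 and 579.21 FPKM in KDM6A morulae and 654.23, 606.01 and 605.25 FPKM in control morulae, against 407.2, 378.46 and 487.05 FPKM in 8-cell embryos (log2 fold change 0.56 in control morulae, adjusted p = 0.0138). CCT3 had the widest difference of the 8 ring subunits, with 219.47, 233.76 and 227.23 FPKM in KDM6A morulae and 251.0, 225.81 and 236.15 FPKM in control morulae, against 119.92, 73.6 and 75.52 FPKM in 8-cell embryos (1.43, SE 0.22, adjusted p = 0.000244). CCT5 (1.01, adjusted p = 0.000499), CCT2 (0.89, adjusted p = 0.00169), CCT4 (0.60, adjusted p = 0.00756) and CCT6A (0.69, adjusted p = 0.0358) were also higher. The groups of CCT6A overlapped, and its call was lost under 7 of 13 alternatives, with adjusted p up to 0.139. The call of CCT4 was lost under median-of-ratios scaling (adjusted p = 0.0999). That of CCT8 was lost under both quantile normalization and median-of-ratios scaling (adjusted p up to 0.154). TCP1 (0.34, adjusted p = 0.137) and CCT7 (0.82, adjusted p = 0.0671) were not called, and CCT7 had uneven 8-cell values of 142.79, 42.13 and 69.61 FPKM. CCT6B, known as a testis form of the sixth subunit, was called as well, at 13.19 to 17.67 FPKM in control morulae and 2.1 to 3.86 FPKM in 8-cell embryos. In all, 7 of 9 tested were higher, beside 42.7% of all genes tested, with a median of 0.82 for the class. The count was 5 under quantile normalization, beside 36.1% of all genes tested, and 4 under median-of-ratios scaling, beside 36.7%, so under that scaling the class was near the background.

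In KDM6A morulae 7 of the 9 TRiC genes were also higher than in 8-cell embryos, beside 41.1% of all genes tested. CCT7 was among them (1.11, adjusted p = 0.0174). Under median-of-ratios scaling the calls of CCT2, CCT5 and CCT8 were lost, and 35.5% of all genes tested were called higher. Over the alternatives the adjusted p reached 0.0540 for CCT2 and 0.0580 for CCT5. The calls of CCT7 and CCT8 were each lost under 4 of 13 alternatives, with adjusted p up to 0.0926 for CCT7 and 0.184 for CCT8, and the log2 fold change of CCT7 ran from 0.70 to 1.57. CCT4 (0.13, adjusted p = 0.576) and TCP1 (0.25, adjusted p = 0.292) were not called in KDM6A morulae, and under median-of-ratios scaling their log2 fold changes were below 0 (-0.14 for CCT4 and -0.014 for TCP1). The direct comparison of CCT4 between the 2 kinds of morula, given above, did not pass the threshold. The assembled ring holds its subunits in equal numbers, as background. Their transcripts were unequal, and the highest of the 8 exceeded the lowest 3.93 to 7.07 times per length in KDM6A morulae, 5.40 to 8.17 times in control morulae and 5.32 to 8.98 times in 8-cell embryos. CCT8 stood apart from the next subunit in every group. Below it, in control morulae, the order by mean was CCT4, CCT2, TCP1, CCT3, CCT5, CCT7 and CCT6A, in which the values of CCT4 overlapped those of CCT2, and those of CCT2 overlapped those of TCP1. In 8-cell embryos CCT3, CCT5 and CCT7 each overlapped the next in order, down to CCT6A.

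Of the 6 prefoldin genes, PFDN4, PFDN1 and PFDN5 were called higher in control morulae than in 8-cell embryos, beside 42.7% of all genes tested. In KDM6A morulae PFDN1 and PFDN6 were called higher, beside 41.1%, and VBP1 lower, beside 25.6%. PFDN4 had 59.12, 69.88 and 45.45 FPKM in 8-cell embryos and was 2.71-fold higher in control morulae (log2 fold change 1.44, SE 0.21, adjusted p = 0.000191). Against KDM6A morulae the difference was not called (0.45, SE 0.22, adjusted p = 0.0941), and 1 of the 8-cell values overlapped them. PFDN1 had 387.48, 507.74 and 298.3 FPKM in 8-cell embryos, below all morula values (1.14 in control morulae, adjusted p = 0.000841, and 0.78 in KDM6A morulae, adjusted p = 0.0077). PFDN5 was called in control morulae (0.48, adjusted p = 0.0309), and that call was lost under 5 of 13 alternatives. PFDN2 (0.25, adjusted p = 0.184) and PFDN6 (0.33, adjusted p = 0.123) were not called in control morulae, and PFDN6 was in KDM6A morulae (0.64, adjusted p = 0.0129).

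VBP1 differed from its partners, with 641.79, 525.03 and 692.03 FPKM in 8-cell embryos. It overlapped control morulae (log2 fold change -0.12, adjusted p = 0.598) and was lower in KDM6A morulae (-0.59, SE 0.18, adjusted p = 0.0128). Under quantile normalization its control value was called as well (adjusted p = 0.0319). The VBP1 call in KDM6A morulae was lost without 8-cell replicate 3 (adjusted p = 0.0545). In 8-cell embryos VBP1 was the most abundant prefoldin transcript and stood apart from PFDN1, whereas PFDN1 led in both kinds of morula. PFDN4 had the lowest mean in all 3 groups, and in control morulae it overlapped PFDN6. Summed over the 6 genes, prefoldin came to 2019 to 2090 FPKM in KDM6A morulae, 2294 to 2666 FPKM in control morulae and 1738 to 1787 FPKM in 8-cell embryos, and the ratio of the KDM6A morula to the 8-cell mean, 1.17, became 0.94 under median-of-ratios scaling.

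**Figure D5:**
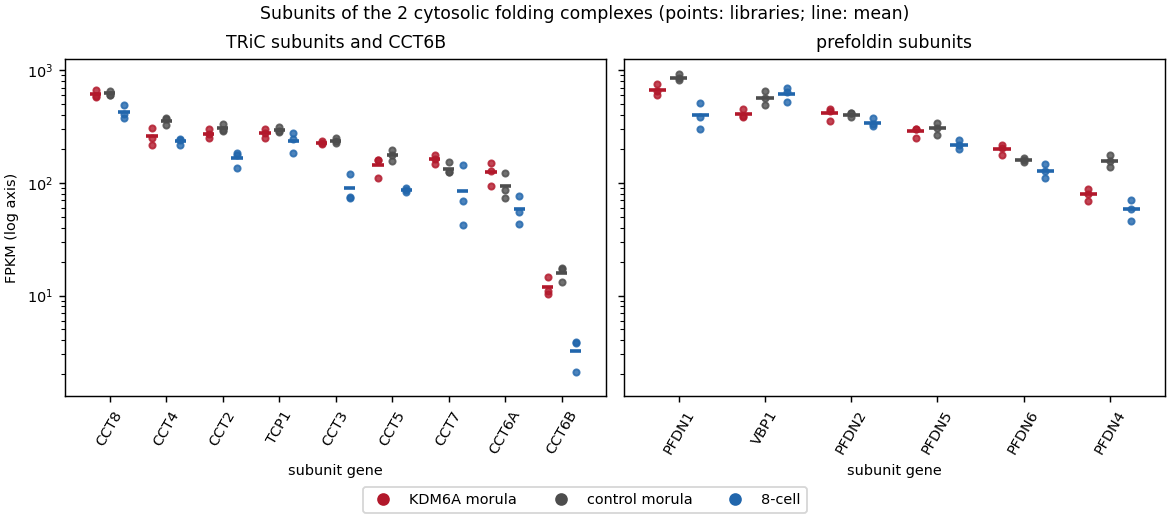
FPKM on a log axis of the TRiC subunit genes with CCT6B (left) and of the prefoldin subunit genes (right), in KDM6A morulae, control morulae and 8-cell embryos. Points are libraries and lines are means (n = 3 per group). CCT8 is the highest TRiC gene in each group, PFDN4 of control morulae (139.01 to 178.52 FPKM) lies above that of both other groups, and VBP1 of 8-cell embryos lies above PFDN1 of the same libraries.

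Genes that work with these chaperones were read from 4 lists. No gene was called between KDM6A and control morulae in the list of co-chaperones and heat shock factors (34 tested, 5 at an unadjusted p below 0.05, lowest adjusted p 0.311 with limma), of folding and stress genes of the endoplasmic reticulum (23 tested, 2 unadjusted, 0.201), of mitochondrial proteases and import partners (12 tested, 1 unadjusted, 0.344) or of chaperonin and prefoldin partners (22 tested, 6 unadjusted, 0.259). Of all genes tested, 12.7% had an unadjusted p below 0.05. In control morulae against 8-cell embryos, 18 of 34 co-chaperones and factors were higher and 3 lower, with a median of 0.87, beside 42.7% higher, 27.1% lower and a median of 0.35 for all genes tested. HSF1, the main heat shock factor, had 13.23, 14.68 and 8.73 FPKM in control morulae and 2.35, 1.96 and 3.20 FPKM in 8-cell embryos (log2 fold change 1.90, adjusted p = 0.000171). STUB1, a ubiquitin ligase that acts on HSP70 clients, was 8.22-fold higher in control morulae, and GRPEL2, a nucleotide exchange factor for HSPA9, had 6.87 to 9.61 FPKM in control morulae and 31.01 to 56.66 FPKM in 8-cell embryos (-2.27). PTGES3, the HSP90 cofactor p23, was also lower (-0.95, adjusted p = 0.000707), against the direction of both cytosolic HSP90 genes.

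The shares of all genes tested, 42.7% higher and 27.1% lower, also stand beside the next counts. Among the mitochondrial partners 8 of 12 were higher and 1 was lower, with a median of 1.40. CLPP, the matrix protease, had a log2 fold change of 2.63 and its partner CLPX one of -1.34 (adjusted p = 0.000378). Of the genes of the reticulum 12 of 24 were higher and 7 lower, with CANX, the lectin chaperone calnexin, at 143.0 to 169.7 FPKM in control morulae and 33.08 to 43.40 FPKM in 8-cell embryos. DDIT3, a factor of the stress response there, had 156.1, 90.25 and 103.9 FPKM in control morulae, against 716.0, 790.8 and 585.8 FPKM in 8-cell embryos. Of the chaperonin and prefoldin partners, 10 of 23 were higher and 5 lower, near the background. ACTG1, cytoplasmic actin and a client of TRiC, was 41.5-fold higher in control morulae, TUBA1C, an alpha tubulin, 5.42-fold higher, and TUBA4A, another alpha tubulin, was at 0.42 to 0.95 FPKM in control morulae and 11.65 to 15.90 FPKM in 8-cell embryos. URI1, a prefoldin-like gene, was lower in control morulae (-1.89), and PDCD5, another gene of this list, was 5.34-fold higher.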

How the data were processed

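The deposited files give FPKM per gene for 9 libraries, rounded by the authors and normalized per transcript length and library, per the file headers. The submitters' processing notes name RSEM 1.2.12, Bowtie2 2.2.5, HISAT 0.1.6, StringTie 1.0.4 and bcl2fastq 2.16, and UMD3.1 as the build. Neither depth nor the treatment of multiply mapping reads is given there, so no counting intervals are printed. Symbols were matched to the rule after trimming, and files were joined by gene identifier. In 10 genes the symbol was missing or different in some files. Rows without a gene identifier (3038, in 1 control file) were left out. Chromosomes come from RefSeq (ARS-UCD2.0), a different build, so no coordinates are given.

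Tests used limma 3.58.1 (R 4.3.3) with a trended prior variance, on values transformed as log2(FPKM + 1). A comparison took in every gene that reached 1 FPKM in 3 or more of its 6 libraries. Adjustment was Benjamini-Hochberg, with a threshold of 0.05. Fold changes on this scale understate changes of low genes, and "-fold" values are ratios of mean FPKM. With 3 against 3 libraries an exact two-sided permutation test of 1 gene cannot go below 0.1, so none was run. The fit was tested on simulated data. Tables and figures were made in Python 3.11.15 (numpy 2.4.6, pandas 2.3.3, matplotlib 3.10.9).

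Members, classes and lists were chosen with earlier results of these data known. Named are all TRiC, prefoldin and HSP90 genes tested and the main HSP70, HSP60 and J proteins. In each class the named genes further include up to 3 highest and 3 lowest called in each stage comparison, and those with the smallest p between KDM6A and control morulae. Further genes (HSPA14, the other J proteins, PDCD5 and the like) and the grouping by location were chosen after values were seen. Alternatives were a pseudocount of 0.1, no filter, a filter of 5 FPKM, 1 fit of all 9 libraries, the replicate number as a block, median-of-ratios scaling, quantile normalization, and each library left out.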

Additional observations from a re-analysis of the deposited data

How the results depend on the processing

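Between KDM6A and control morulae the calls of 0 higher and 0 lower chaperone genes became 1 higher and 1 lower under quantile normalization. Of all genes tested, 0.194% were higher and 0.0921% lower under that setting. With single libraries left out the calls ran from 0 to 3 higher and 0 to 3 lower. The 3 and 3 were found without KDM6A morula replicate 1, beside 3.89% higher and 3.73% lower of all genes tested. They are near that background. Against 8-cell embryos, control morulae had 29 to 34 higher and 11 to 14 lower with single libraries left out. The shares of all genes tested were 38.2% to 43.0% higher and 23.1% to 27.0% lower. KDM6A morulae had 25 to 33 higher and 11 to 16 lower, beside 35.9% to 41.1% and 22.4% to 25.2%. For named genes of the control stage comparison, 525 of 558 alternative values kept direction and side of the threshold, 27 lost the call, 4 gained it and 2 turned sign. For KDM6A morulae against 8-cell embryos 525 of 569 did, 37 lost it, 4 gained it and 3 turned sign. The sign changes were small values under median-of-ratios scaling: HSP90B1 (-0.04) and PFDN2 (-0.026) in control morulae, and CCT4 (-0.14) and TCP1 (-0.014) in KDM6A morulae. CCT4 of KDM6A morulae also ran from -0.0102 to 0.25 with single libraries left out. The cause was not tested.

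Same-numbered libraries did not deviate together (correlations -0.22, -0.24 and 0.16 between KDM6A and control morulae, -0.040 to -0.0014 for control morulae with 8-cell embryos, -0.087 to 0.083 for KDM6A morulae with 8-cell embryos), so the numbers were not taken as pairs. With the replicate block, 0 higher and 0 lower were called between the morulae, beside 0.0102% and 0.0% of all genes tested. Against 8-cell embryos, control morulae had 35 higher and 13 lower, beside 42.2% and 26.9%. KDM6A morulae had 31 higher and 15 lower against them, beside 41.1% and 25.3%. Depth is unknown, so no counting error can be given for genes near 1 FPKM.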
